A study of Mus musculus with 4 samples.

Results

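Genes used as markers of immature dentate granule cells and neuroblasts were examined in hippocampal RNA of mice that drank fluoxetine or plain water, 10 in all: Sox11, Sox4, Dcx, Neurod1, Calb2, Tubb2b, Marcksl1, Gap43, Stmn1 and Dpysl3. They were taken as every probeset of the array whose only gene symbol in the platform annotation is one of these names, which gave 32 of the 34945 probesets with 1 symbol, for 10 of 18193 genes. All mice were males of the inbred strain DBA/2J, 8 to 10 weeks old by the sample labels and otherwise without a genetic change. The fluoxetine group received the serotonin reuptake inhibitor in its drinking water for 21 days at a daily dose of 18 mg/kg, and the control group received untreated water (0 mg/kg). Each group had 12 mice, whose whole hippocampal RNA was mixed in 2 pools of 6, and every pool was read on its own Affymetrix Mouse Genome 430 2.0 array, so n is 2 pools per group throughout. The submitters call the pools biological replicates.

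New granule neurons arise throughout life from stem cells in the subgranular zone of the dentate gyrus. Their daughters pass through a neuroblast stage marked by doublecortin and SoxC transcription factors, grow an axon and dendrites with the help of microtubule and growth cone proteins, and pass through a calretinin stage before they become mature calbindin-positive granule cells. Chronic fluoxetine is known for raising the number of dividing and doublecortin-positive cells in the dentate gyrus of several rodent models, and several of these 10 genes are also expressed in mature neurons, glia or interneurons. In RNA of a whole hippocampus, more cells of one type and more RNA per cell cannot be told apart.

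Sox11 rose about 2-fold in the fluoxetine pools and was the only one of the 10 genes to pass the test at its brightest probeset. The other 9 genes lay on both sides of 0. Tubb2b, Calb2 and Sox4 had higher values in both fluoxetine pools than in both controls, and all 4 probesets of Marcksl1 and both tested probesets of Dcx had lower values in both fluoxetine pools, without passing. The test was limma's moderated test on log2 intensities, with Benjamini-Hochberg adjustment over all 16938 probesets that reached an intensity of 100 in at least 2 of the 4 arrays, and a call is an adjusted p under 0.05. By that rule 4 of the 21 tested member probesets passed, all of them Sox11 and all higher, where 1.72% of all tested probesets passed in either direction (1.03% higher and 0.685% lower). Counted once per gene, at the tested probeset with the highest mean value, 1 of the 10 rose and 0 fell by limma, and 5 had an unadjusted p under 0.05. Over all 9030 tested genes 1.86% passed in either direction and 22.0% had an unadjusted p under 0.05. The median log2 fold change was 0.02 over the 10 genes and -0.03 over all tested genes. Groups did not overlap for 16 of the 21 member probesets, 8 higher and 8 lower, against 56.0% of all tested probesets (21.9% higher and 34.2% lower). Of the 8 higher, 5 are of Sox11, and 1 of these, 1436790_a_at, reached the minimum only in the fluoxetine pools. Of the 8 lower, 4 are of Marcksl1. Counted once per gene, 4 of the 10 did not overlap higher and 3 lower, where 2132 and 2953 of all 9030 tested genes did not. By the submitters' own rule, a ratio of group means of at least 2-fold with no test, 4 Sox11 probesets and no other member counted, where 0.773% of tested probesets did. They were 3 of the 4 that passed, without 1429372_at (1.97-fold), and the dim 1436790_a_at, whose ratio rests on control values under 100. Several of these probesets belong to 1 gene and are not independent of each other.

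**Figure D1:**
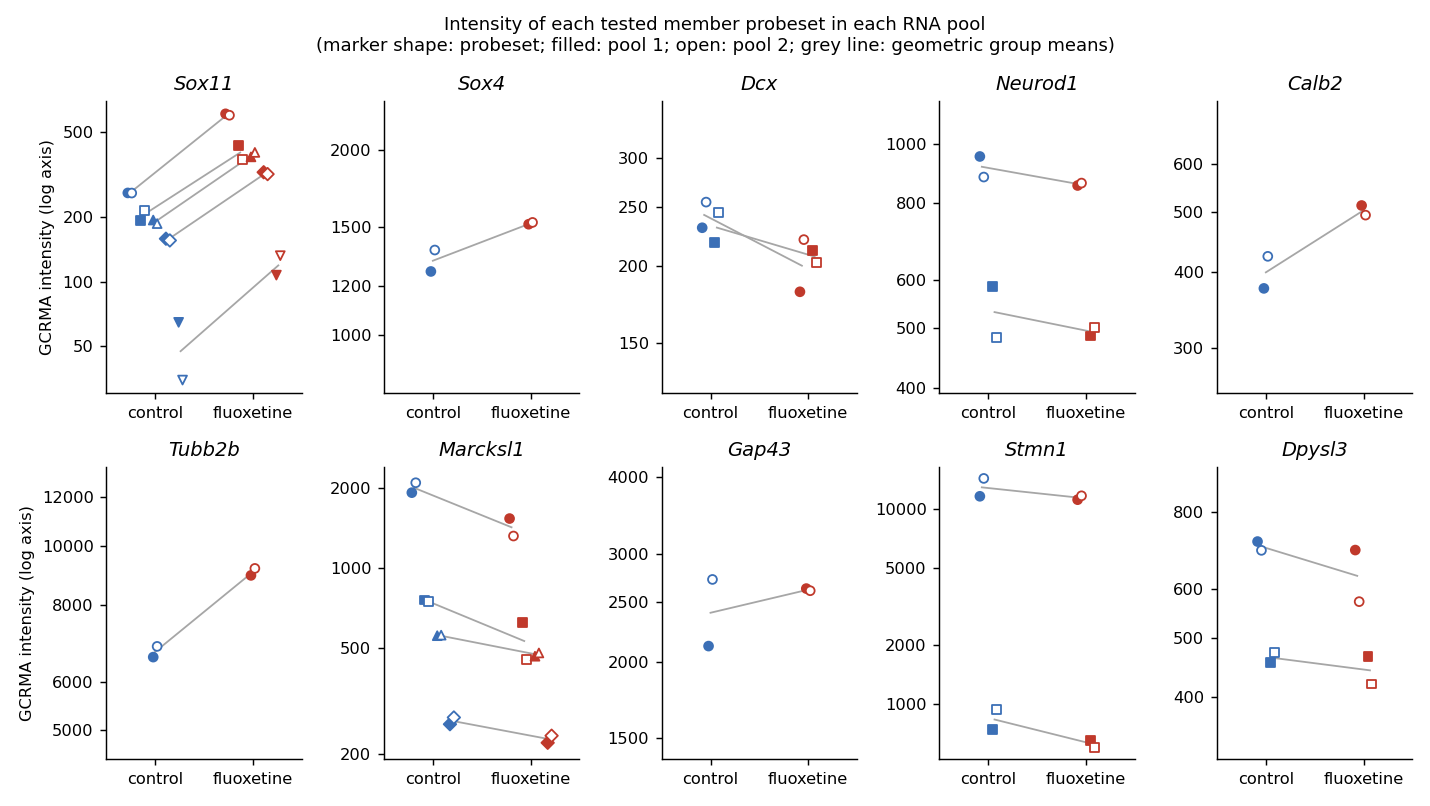
GCRMA intensity on a log axis of each tested probeset of the 10 genes in the 2 control pools (blue) and the 2 fluoxetine pools (red); filled symbols are pool 1, open symbols pool 2, marker shape tells probesets of a gene apart and the grey line joins the geometric group means. All 5 Sox11 probesets have both fluoxetine pools above both controls, the brightest moving from 259 to 601, while the 4 Marcksl1 probesets run downwards and Gap43 overlaps between groups.

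Sox11 and Sox4 encode SoxC transcription factors, close relatives that bind DNA through an HMG box and drive the neuronal differentiation of progenitors. At its brightest probeset, 1453125_at, Sox11 was at 259 in both control pools (259.1 and 258.7) and at 606 and 596 in the fluoxetine pools. The values of the pools within a group differed by at most 0.022 on the log2 scale, and the groups did not overlap. The log2 fold change was 1.21 ± 0.06 (SE, n = 2 pools per group, 95% interval 1.05 to 1.38, adjusted p = 0.0172 by limma), which is 2.32-fold. Among the 9030 genes this change ranked 43 from the highest.

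The other Sox11 probesets gave similar sizes. At 1429372_at Sox11 was at 192 and 215 in the controls and at 430.0 and 371 in the fluoxetine pools (log2 0.98 ± 0.11, adjusted p = 0.0393 by limma). At 1429051_s_at it was at 194 and 186 against 381 and 400.2, a log2 fold change of 1.04 ± 0.07 (adjusted p = 0.0252 by limma). At 1453002_at it was at 158 and 156 against 324 and 317 (log2 1.03 ± 0.06, adjusted p = 0.0252 by limma). In these 3 probesets too every fluoxetine pool lay above every control pool. The 4 passing probesets were designed from only 2 source sequences, 2 probesets each, so they are repeated readings of one gene. The fifth, 1436790_a_at, was dim, at 64.6 and 34.8 in the controls and at 107 and 132 in the fluoxetine pools. It entered the test only through the fluoxetine pools, and with both controls under 100 its fold is a lower bound, at least 1.19-fold (adjusted p = 0.110 by limma). The remaining probeset, 1431225_at, stayed under 100 on all 4 arrays (15.4 and 18.5 against 27.8 and 20.4) and was not tested.

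With any 1 array left out, the log2 fold change of Sox11 stayed between 1.20 and 1.23 but its adjusted p by limma rose to between 0.107 and 0.162: without control pool 1 it was 0.161, without control pool 2 0.162, without fluoxetine pool 1 0.130 and without fluoxetine pool 2 0.107. In each of these fits limma called 0 of the 16938 tested probesets, while 2657 to 3515 had an unadjusted p under 0.05. Spike-in RNA, added before hybridisation, is read by 18 probesets, and in all 18 the fluoxetine arrays lay above the control arrays (log2 0.17 to 0.55, median 0.36). Tested probesets as a whole had a median of -0.04. The change of Sox11 lay above that range and those of Sox4, Calb2 and Tubb2b lay inside it. The part of whatever moved the spike-ins in these results was not tested.

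Sox4, the other SoxC gene of the set, was at 1268 and 1374 in the controls and at 1514 and 1524 in the fluoxetine pools at its single tested probeset, 1433575_at. Both fluoxetine pools were above both controls, by less than the difference seen for Sox11. The log2 fold change was 0.20 ± 0.07 (95% interval 0.01 to 0.40, adjusted p = 0.208 by limma), an interval that does not meet that of Sox11. Its remaining 7 probesets were dim, between 2.83 and 59.1 on every array, and were not tested. Of the 7 tested Sox genes outside this pair, 0 passed by limma, 0 had an unadjusted p under 0.05, and the median log2 fold change was 0.05, with Sox21 at 0.19 ± 0.09, Sox10 at -0.11 ± 0.10 and Sox1 at -0.11 ± 0.15.

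The 250 bases before the start sites of 3 of these genes are shown because they stand for the 3 outcomes seen: Sox11, which rose, its paralog Sox4, which did not pass, and Marcksl1, which was lower without passing. Promoter windows were found in the RefSeq promoter table (build GRCm38.p6) for 5 of the 10 genes. The Sox11 window is chr12:27342719-27342968 on the minus strand, the Sox4 window chr13:28953700-28953949 on the minus strand, and the Marcksl1 window chr4:129513331-129513580 on the plus strand. Capitals mark an E-box (CANNTG, the site type bound by bHLH factors such as Neurod1), a GC box (GGGCGG) and a CCAAT box (CCAAT), each searched on both strands.
Sox11: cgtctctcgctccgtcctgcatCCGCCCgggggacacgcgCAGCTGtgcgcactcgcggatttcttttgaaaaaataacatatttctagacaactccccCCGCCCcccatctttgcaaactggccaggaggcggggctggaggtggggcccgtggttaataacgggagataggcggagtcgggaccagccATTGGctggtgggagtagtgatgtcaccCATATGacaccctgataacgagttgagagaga
Sox4: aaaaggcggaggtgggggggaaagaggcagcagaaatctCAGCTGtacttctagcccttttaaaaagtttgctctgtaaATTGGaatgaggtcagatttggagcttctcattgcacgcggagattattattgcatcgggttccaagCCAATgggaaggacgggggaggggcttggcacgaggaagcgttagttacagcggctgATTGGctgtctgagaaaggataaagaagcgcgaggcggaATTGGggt
Marcksl1: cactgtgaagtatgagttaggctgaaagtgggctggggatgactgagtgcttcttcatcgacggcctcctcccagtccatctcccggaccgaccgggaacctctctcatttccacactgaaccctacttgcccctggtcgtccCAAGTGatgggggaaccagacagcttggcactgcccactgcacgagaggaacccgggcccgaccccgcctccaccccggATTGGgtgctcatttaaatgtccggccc

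The Sox11 window holds 2 E-boxes, 2 GC boxes and 1 CCAAT box. That of Sox4 holds 1 E-box, 0 GC boxes and 4 CCAAT boxes, and that of Marcksl1 1 E-box, 0 GC boxes and 1 CCAAT box. None of the marked motifs overlap each other. Of all 32851 windows of the same length in the table, 66.2% held an E-box, 32.7% a GC box and 33.8% a CCAAT box. The 3 windows have no match to the cAMP response element TGACGTCA (in 1.55% of all windows) or its half-site TGACG (17.8%), to the NeuroD-type E-box CAGATG (14.4%), to the Sox motif AACAAT (9.42%) or to the TATA box TATAAA (12.4%). These matches describe letters in the windows only.

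Dcx and Neurod1, the members most tied to the neuroblast stage besides SoxC, had lower group means with fluoxetine at every tested probeset, without passing. Dcx, the microtubule-associated protein doublecortin of migrating neuroblasts, was at 231 and 255 in the controls and at 182 and 221 in the fluoxetine pools at 1418141_at (log2 -0.28 ± 0.12, 95% interval -0.59 to 0.04, adjusted p = 0.266 by limma). At 1418139_at Dcx was at 219 and 245 against 212 and 203 (log2 -0.16 ± 0.09, 95% interval -0.38 to 0.07, adjusted p = 0.347 by limma). Both fluoxetine pools were under both controls at each probeset, though fluoxetine pools 1 and 2 differed by 0.28 at the first on the log2 scale, as much as the groups did. Without fluoxetine pool 1 the brighter probeset was at -0.13 and without fluoxetine pool 2 at -0.42. The upper ends of these intervals lie far under the size of the Sox11 change. Another 2 Dcx probesets were near the floor of the arrays, between 4.01 and 5.92, and were not tested.

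Neurod1, a bHLH transcription factor needed for the survival and maturation of granule neurons, was at 954 and 883 in the controls and at 855 and 863 in the fluoxetine pools at 1426413_at. These values did not overlap, by a small margin, with a log2 fold change of -0.10 ± 0.07 (95% interval -0.29 to 0.10, adjusted p = 0.489 by limma). It was -0.039 without control pool 1 and -0.15 without control pool 2. At 1426412_at, with 585 and 483 against 486 and 501, the groups overlapped (log2 -0.11 ± 0.11, adjusted p = 0.604 by limma).

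Calb2 encodes the calcium buffer calretinin, which immature granule cells make for a short time and which mossy cells of the mouse hilus, a class of interneurons and Cajal-Retzius cells also hold. It was at 376 and 424 in the controls and at 513 and 495 in the fluoxetine pools, so both fluoxetine pools were above both controls. The log2 fold change was 0.34 ± 0.09 (95% interval 0.11 to 0.56, adjusted p = 0.126 by limma). Calb1, the calbindin of mature granule cells, was at 5157 and 4876 in the controls and at 3488 and 3843 in the fluoxetine pools (log2 -0.45 ± 0.08, adjusted p = 0.0771 by limma). It did not pass at this probeset, while 1 of its 3 tested probesets fell. Of the 8 tested EF-hand calcium buffers and sensors other than Calb2, 0 passed at the brightest probeset by limma (2 at an unadjusted p under 0.05), with Hpcal4 at 0.20 ± 0.07, Pvalb at -0.15 ± 0.07 and a median of -0.10.

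Markers of the other cells that hold calretinin were read beside this value, and their part in it was not tested. Of the mossy cell list 3 of 6 annotated genes were tested and 0 passed by limma (2 at an unadjusted p under 0.05). Ociad2 was at 0.50 ± 0.10 (adjusted p = 0.0814 by limma) and Calcrl at 0.00 ± 0.12. Drd2, a defining mossy cell marker, did not reach the minimum, nor did Nmb and Csf2rb2. The summed intensity of the tested mossy cell genes, Calb2 among them, was 3051 to 3369 in the control pools and 4406 in each fluoxetine pool. Most of it was Ociad2, at 2850 and 2451 in the controls and at 3737 and 3750 in the fluoxetine pools. Of the Cajal-Retzius list 4 of 8 were tested and 0 passed by limma (2 at an unadjusted p under 0.05), with Cacna2d2 at 0.26 ± 0.07 Reln at 0.19 ± 0.08 and Ndnf at -0.15 ± 0.08, sums of 2873 to 3092 against 3359.9 to 3483, and the defining genes Trp73, Lhx1, Lhx5 and Ebf3 under the minimum. The interneuron list also holds general GABA genes and genes of other interneuron classes, such as Npy, Sst, Pvalb and Lhx6. Its counts and sums are therefore not of calretinin cells alone. Of its 12 genes 11 were tested and 1 rose, the neuropeptide gene Npy (log2 2.22 ± 0.10, adjusted p = 0.0172 by limma). Vip, the peptide that many calretinin interneurons share, was at 0.00 and Dlx1 at -0.42 ± 0.11. The GABA-synthesis genes lay on both sides of 0. Gad2 was at 0.26 ± 0.11 with both fluoxetine pools above both controls, and Gad1 at -0.08 with both under both controls. Of the 11 list genes 6 were above 0, Vip and Calb2 among them. Groups did not overlap for 4 higher and 5 lower, where 2132 and 2953 of all 9030 tested genes did not. Sums of the interneuron list were 36682 to 37897 in the control pools and 40276 to 41137 in the fluoxetine pools, Npy included. Npy alone was at 1236 and 1436 in the controls and at 5944 and 6508 in the fluoxetine pools. Its rise was larger than that of the sums, so the other list genes together were lower with fluoxetine.

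Among the cytoskeletal members, Tubb2b and Marcksl1 stood apart from 0 in opposite directions. Tubb2b, a beta-tubulin isotype of growing neurons, was at 6577 and 6848 in the controls and at 8942 and 9179.9 in the fluoxetine pools. Both fluoxetine pools were higher, by much more than the pools of a group differed. The log2 fold change was 0.43 ± 0.07 (95% interval 0.26 to 0.61, adjusted p = 0.0636 by limma), which is 1.35-fold and did not pass. A further probeset, 1449682_s_at, which the annotation gives to Tubb2b and the pseudogene Tubb2a-ps2 together and which therefore lies outside the members, was at 1242 and 1199 against 1933 and 1750.1 (log2 0.59 ± 0.08, adjusted p = 0.0507 by limma). Beta-tubulin genes are close copies of each other, so the share of related transcripts in these signals is not known. Of the 9 other tested tubulin genes 0 passed by limma (3 at an unadjusted p under 0.05), with a median of 0.04. All alpha- and beta-tubulin genes among them, 7 in number, were above 0, and Tubg1 and Tubg2 were below, a split made with the values known. Groups overlapped for 3 of the 7, Tubb2a, Tubb3 and Tubb4a. Of all tested genes 43.5% were above 0. Tubg1 was at -0.24 ± 0.14, Tuba1a at 0.22 ± 0.06 and Tubb4b at 0.22 ± 0.07, while Tubb2a, the nearest relative, was at 0.04.

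Marcksl1, an actin-regulating relative of the kinase substrate MARCKS, was at 1919 and 2092 in the controls and at 1534 and 1318 in the fluoxetine pools at 1437226_x_at. Both fluoxetine pools were under both controls, and the log2 fold change was -0.49 ± 0.10 (95% interval -0.76 to -0.23, adjusted p = 0.0927 by limma). At 1415922_s_at Marcksl1 was at 757 and 749.5 against 623 and 452 (log2 -0.51 ± 0.16, adjusted p = 0.176 by limma), with fluoxetine pool 2 well below pool 1. The 2 dimmer probesets, 1435627_x_at and 1435415_x_at, had smaller differences, -0.24 ± 0.07 and -0.23 ± 0.07 on the log2 scale. All 4 are of types that can match several transcripts, as the _s_ and _x_ in their names say, so Marcksl1 has no reading free of possible cross-hybridisation. Its change ranked 190 from the lowest of 9030 genes. Marcks itself was at 0.04.

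**Figure D2:**
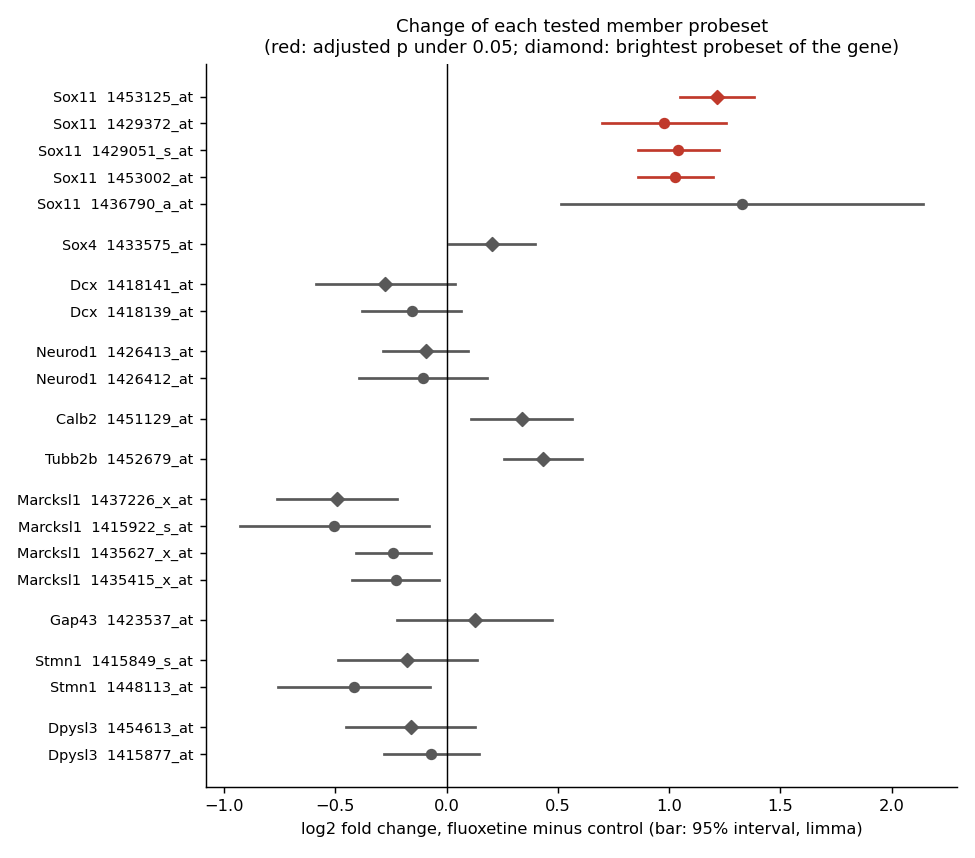
Log2 fold change, fluoxetine minus control, of the 21 tested member probesets with 95% intervals from limma; red marks an adjusted p under 0.05, diamonds the brightest probeset of each gene. The 4 red Sox11 probesets lie between 0.98 and 1.21, and every other gene lies between -0.51 and 0.43.

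The remaining cytoskeletal and growth cone members overlapped between groups at their brightest probesets. Gap43, a growth cone protein of extending axons, was at 2121 and 2724 in the controls and at 2632 and 2611 in the fluoxetine pools. The fluoxetine pools lay between the 2 control pools, and the log2 fold change was 0.13 ± 0.13 (95% interval -0.22 to 0.47, adjusted p = 0.614 by limma). Without control pool 1 it was -0.055 and without control pool 2 it was 0.31, so its sign rests on 1 pool.

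Stmn1, a stathmin that destabilises microtubules in proliferating and young neurons, was at 11639 and 14382 in the controls and at 11180.2 and 11707 in the fluoxetine pools at 1415849_s_at. The groups overlapped (log2 -0.18 ± 0.12, 95% interval -0.49 to 0.13, adjusted p = 0.433 by limma), and the value was -0.025 without control pool 2 and -0.33 without control pool 1. That probeset is of a type that can match several transcripts, as the _s_ in its name says, and the dimmer 1448113_at is not. At 1448113_at Stmn1 was at 736 and 931 against 645 and 597 with no overlap (log2 -0.42 ± 0.13, adjusted p = 0.171 by limma). Control pool 1 was lower than control pool 2 for both Stmn1 and Gap43, by 0.31 and 0.36 on the log2 scale, where the median absolute difference between the control pools over all tested genes was 0.08.

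Dpysl3, a collapsin response mediator protein that links axon guidance signals to the cytoskeleton, was at 717 and 694 in the controls and at 695 and 572 in the fluoxetine pools at 1454613_at. At 1415877_at it was at 455 and 472 against 465 and 419.9. The groups overlapped at both, with log2 fold changes of -0.16 ± 0.11 and -0.07 ± 0.08 (adjusted p = 0.443 and 0.654 by limma). Only fluoxetine pool 2 was low, and without it the brighter probeset was at -0.022. A further Dpysl3 probeset, between 31.6 and 43.2, was not tested.

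Relatives of these cytoskeletal genes gave 0 calls by limma at their brightest probesets. Of 9 tested stathmin, collapsin response mediator and doublecortin-like genes, 6 were above 0, 2 had an unadjusted p under 0.05 and the median was 0.02, with Stmn4 at 0.32 ± 0.07 (adjusted p = 0.0990 by limma), Dpysl4 at -0.29 ± 0.07 and Dclk3 at 0.15. Of 11 tested growth cone and axon regeneration genes 1 had an unadjusted p under 0.05 and the median was 0.04. Stat3, a transcription factor of the injury response, was at 0.63 ± 0.15 (adjusted p = 0.111 by limma) with 1 of its 2 tested probesets passing, and Cebpb was at 0.29 ± 0.14 and Klf6 at -0.28 ± 0.15. Atf3, Sprr1a, Hspb1 and Ankrd1 did not reach the minimum.

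Of the wider list of immature granule cell and neuroblast genes, 22 of 30 annotated genes were tested and 0 rose or fell by limma (9 at an unadjusted p under 0.05), where 1.31% of all tested genes rose and 0.554% fell. Their median log2 fold change was 0.08, with 13 above 0. The largest were Sema3c, a guidance cue (0.47 ± 0.09, adjusted p = 0.0881 by limma), Gadd45g (0.46 ± 0.13, adjusted p = 0.150) and the imprinted gene Nnat (0.43 ± 0.07, adjusted p = 0.0707). In the other direction, the homeobox gene Dlx1 was at -0.42 ± 0.11 and Insm1, a zinc finger factor of neuronal progenitors, at -0.36 ± 0.10. Eomes, Igfbpl1, Draxin, Mex3a, Dpysl5, Cxcr4, Neurog2 and Sox3, several of them specific to progenitors and neuroblasts, were under the minimum. Prox1, which marks the granule lineage at all ages, was at 0.17 ± 0.26, an imprecise value with control pools at 380 and 227. Tubb3 was at 0.02 ± 0.07.

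Of the list of neuronal bHLH genes and their regulators 10 of 18 genes were tested and 1 rose, a regulator. Id3, an inhibitor of bHLH factors, went from 501 and 481 in the control pools to 838 and 795 in the fluoxetine pools (log2 0.73 ± 0.07, adjusted p = 0.0352 by limma). Its relative Id1 was at 0.51 ± 0.09 (adjusted p = 0.0755), the Notch target Hes5 at -0.71 ± 0.20 (adjusted p = 0.148), and Neurod2 and Neurod6 at 0.27 and -0.17. Of 21 annotated stem cell and cell cycle genes 8 were tested and 0 passed by limma (2 at an unadjusted p under 0.05), with a median of 0.06. Ccnd2, a cyclin of dividing progenitors, was at -0.40 ± 0.10 (adjusted p = 0.118 by limma), Mcm5 at 0.25 ± 0.31 and Hmgb2 at 0.22 ± 0.07. Mki67, Top2a, Nes and 10 others of that list were under the minimum, so most of it was not measured here.

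Mature granule cell genes moved in both directions. Of 14 tested, the GTPase gene Rasl10a rose (log2 0.96 ± 0.12, adjusted p = 0.0466 by limma) and the desmosomal gene Dsp fell by 1.79 ± 0.24 (adjusted p = 0.0495). Their median was 0.13. C1ql2, a synapse organiser of mossy fibres, was at 1.11 ± 0.17 (adjusted p = 0.0636). Of 9 tested CA pyramidal cell genes 1 fell, Lypd1 (log2 -1.08 ± 0.11, adjusted p = 0.0369 by limma), with Fibcd1 at -0.82 ± 0.25, Spink8 at -0.27 and a median of -0.23. Genes of both hippocampal neuron classes were thus measured, as the tissue label says.

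**Figure D3:**
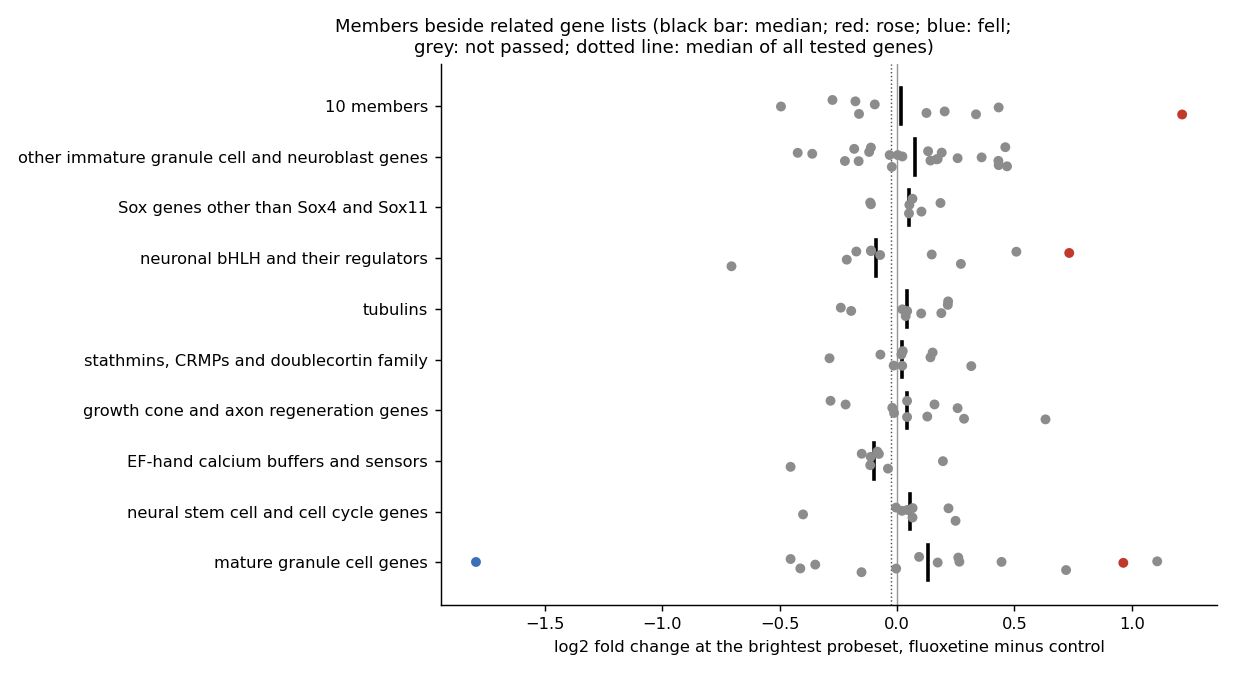
Log2 fold change at the brightest probeset of each tested gene, for the 10 members and 9 related lists; black bars are medians, red and blue mark genes that rose or fell, and the dotted line is the median of all tested genes at -0.03. Most lists centre near 0, and Sox11 lies at 1.21, apart from the rest of the members.

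Genes with the values most like those of Sox11 were found by the distance between the 4 log2 values after subtracting each gene's control mean, over 9029 genes and 4 arrays. The 5 nearest were Klf10, an early response transcription factor (distance 0.10), Adgrl4, an endothelial adhesion receptor (0.15), C1qb, a complement gene of microglia (0.18), Sstr2, a somatostatin receptor (0.22), and Aqp4, the astrocyte water channel (0.23). Adgrl4 had both controls under 100 and entered the test only through the fluoxetine pools. Its distance rests on dim values and its fold is a bound, at least 1.52-fold. The other 4 had log2 fold changes between 1.07 and 1.25. With the control mean subtracted, the distance depends mostly on the fold change, so fold changes near that of Sox11 follow from how these genes were chosen.

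Markers of glia and vessels also moved between the groups, and their part in the values of the 10 genes was not tested. Of 10 tested microglia genes 5 rose and all 10 were above 0, with C1qb at 1.10 ± 0.08, Ly86 at 1.13 ± 0.19 (not passed) and Cd53 at 0.86 ± 0.10. C1qa, Tyrobp and Ctss rose too, while C1qc was under the minimum. The summed microglia intensity was 7455 to 7732 in the control pools and 11747 to 12105 in the fluoxetine pools. Of 10 tested astrocyte genes 2 rose, Gfap (2.78 ± 0.14) and Aqp4 (1.07 ± 0.08), and 4 were below 0, the largest of them Fgfr3 (-0.44 ± 0.10, both fluoxetine pools under both controls), with sums of 76523 to 78278 against 84101 to 88012. Much of that difference lay in the 2 that rose. Gfap was at 461 and 385 in the controls and at 3222 and 2606 in the fluoxetine pools, and Aqp4 at 3050 and 2852 against 6458 and 5920. Of 8 tested endothelial and mural genes 2 rose, Rgs5 (0.59 ± 0.06, with 1 of its 4 tested probesets passing) and Abcc9 (0.52 ± 0.07). Cldn5 was at 0.66 ± 0.11, and sums were 4272 to 4343 against 5547 to 5670.2. Most of that difference lay in Rgs5, at 1768 and 1761 in the controls and at 2660 and 2648 in the fluoxetine pools. Abcc9 was dim, at 102 and 95.5 against 143 and 140.

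Oligodendrocyte precursors, which express SoxC and cytoskeletal genes of this set too, had 6 tested markers, of which Gpr17 rose (1.30 ± 0.12, adjusted p = 0.0350 by limma). Pdgfra was at -0.17 and Sox10 at -0.11, and sums were 4260.4 to 4278 against 4529.7 to 4576, with Cspg4 and C1ql1 under the minimum. Gpr17 alone was at 237 and 212 in the controls and at 504 and 605 in the fluoxetine pools. The difference in the sums thus rests on this 1 gene. The 8 tested myelin genes gave 0 calls by limma and 0 unadjusted p under 0.05, the largest being Mog and Mal at -0.16 and Cldn11 at 0.16, with sums of 58926 to 59601 against 56187 to 56579. Of 6 tested meninges and fibroblast genes 1 passed, Col3a1. Both its controls were under 100 (59.0 and 56.4), so it entered the test only through the fluoxetine pools (239 and 223). Its fold is a bound, at least 2.31-fold. Ptgds was at -0.91 and Col1a2 at 0.83, and sums were 12676 to 19198 against 8667 to 12124. Ptgds made up most of these sums, at 10285 and 15944 in the controls and at 8821 and 5295 in the fluoxetine pools.

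Markers of neighbouring tissue were read in the same way, and their part was not tested. Of 4 tested genes on the striatal and subventricular list 2 rose, Penk (3.74 ± 0.08) and Drd1 (1.73 ± 0.13), with Ppp1r1b at 0.66 ± 0.10 and sums of 1229 to 1473 against 5069 to 5347. Most of that difference lay in Penk, while Tac1, at 711 and 927, made up most of the control sums. Drd2, Gpr6, Sp8, Dlx5 and Dlx6 of that list were under the minimum in these pools. Of 4 tested genes on the thalamus and habenula list 0 passed by limma (2 at an unadjusted p under 0.05), with Prkcd at 0.56, Slc17a6 at -0.48, Tac1 at 0.36 and sums of 2246 to 2616 against 2403 to 2506. Tac1 is on the striatal and subventricular list as well, so it counts in both. Of the choroid plexus list 2 genes were tested, Ttr at 0.79 and Kl at -0.32, and 0 passed by limma, also unadjusted. Their sum was 37977 and 2050.5 in control pools 1 and 2 and 51221 and 4460.2 in fluoxetine pools 1 and 2, a difference by pool number that is far larger than any seen in the 10 genes.

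**Figure D4:**
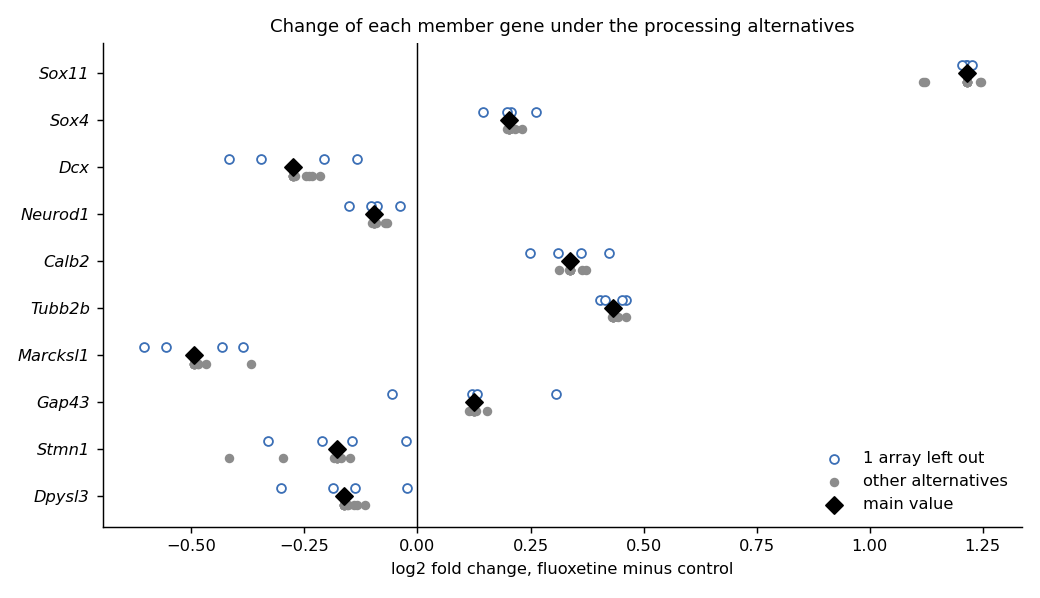
Log2 fold change of each of the 10 genes in the main fit (diamonds), with 1 array left out (open circles) and under the other processing alternatives (grey). Sox11 stays between 1.12 and 1.25 in all of them, and Gap43 is the one gene whose value changes sign.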

How the data were processed

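Hippocampal RNA pools were measured on 4 arrays, with group and pool number read from each sample's title. The deposited table holds 1 linear intensity per probeset and array, normalized by the authors with the GCRMA algorithm of ArrayAssist (per the labels' protocols), whose version is not given here. GCRMA pulls dim probesets towards a common floor, so small values have little meaning.

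Values were taken to log2 with no pseudocount. Of 45101 probesets, 64 controls were left out and 16938 with 100 or more in at least 2 arrays were tested with limma 3.58.1 in R 4.3.3 (lmFit, eBayes, two-sided, no covariate). Group means are geometric and errors are limma standard errors. The number of arrays limits the precision, and an exact permutation test of 2 against 2 pools could not pass 0.05. The procedure was tested on simulated data. The members, the lists and the alternatives were chosen with earlier results of these data known. Named are all members, up to 3 genes per list with the largest change, any that passed, and the 5 genes nearest to Sox11. Other list genes in the text were picked with their values known. Lists are described by counts and medians, with no list test. Symbols came from the platform annotation and 34741 of 34945 single-symbol probesets (controls left out) matched the reference gene table by gene number.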

Additional observations from a re-analysis of the deposited data

How the results depend on the processing

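With 2 pools per group, calls depend on the spread that limma borrows from other probesets. Of all tested probesets 291 passed; the count was 163 with 100 or more in at least 1 array, 16 with 50 or more in at least 2 arrays, 0 with no filter (5396 at an unadjusted p under 0.05), 532 with trend and robust settings, 193 without probesets that can match several transcripts and 131 by the submitters' 2-fold rule. The 4 member probesets became 1 with the minimum of 50 and 0 with no filter (11 at an unadjusted p under 0.05), where the adjusted p of Sox11 was 0.147. The 1 member gene became 2 with trend and robust settings, by Tubb2b (adjusted p = 0.0197), and 2 with gene means over probesets, by Tubb2b again (0.0439), and 0 with no filter. With 1 array left out, limma called 0 probesets, 0 member probesets (9 to 11 at an unadjusted p under 0.05) and 0 member genes (4 to 6), the lone array being assumed to vary like the others. Gap43 then ran from -0.055 to 0.31 and was the one member to change sign. With the pool number as a replicate block, 9 probesets, 0 member probesets (13 at an unadjusted p under 0.05) and 0 member genes (5) passed, and Sox11 had an adjusted p of 0.0809. Nothing in the labels ties equal pool numbers together, and the deviations of same-numbered pools correlated at 0.14 over 16938 probesets. Where a cause is not given here, the cause was not tested. Sox11 kept its direction in all 17 alternatives and an adjusted p under 0.05 in 10 of the 16 that gave one, Tubb2b its direction in 17. Marcksl1 has no value without multi-matching probesets. Dim probesets, 11 of the 32 member probesets, carry no usable value.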
